A study of Mus musculus with 20 samples.

Results

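The comparison described here set cells given the D361E form of p65, which the study's design calls non-cleavable, against cells given wild-type (WT) p65. Its members were chosen by sample title alone, as the 3 arrays titled D361E and the 3 titled WT, which makes 6 of the 20 arrays of the study. The study measured total RNA of a murine B16 Bcr-Abl+ line, a B16 melanoma line labelled as carrying the Bcr-Abl fusion, on 1-colour Agilent microarrays after transfection with plasmids. D361E cells received mouse p65 with residue 361 mutated, WT cells received the unmutated mouse p65, and void cells, whose levels are given beside them, received the plasmid without p65 and also number 3. The groups with the N- and C-terminal cleavage fragments, alone or together, enter the shared estimate of the spread. All cells were grown in the same DMEM-based medium and all carry Bcr-Abl. The labels name the strain as mouse C3H eOuJ, and they do not say whether the replicates are separate cultures or transfections, so the p-values reflect only how these samples vary, which may be technical.

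The protein p65, encoded by Rela, is the main transactivating subunit of the transcription factor NF-kB. IkB proteins hold it in the cytoplasm until they are degraded on signals such as TNF, after which it enters the nucleus and switches on genes for its own inhibitors, for chemokines and for survival factors. Caspases can cut p65 during apoptosis, which separates its DNA-binding part from its transactivating part, and a substitution at the cut site keeps the protein whole.

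Levels are given as scaled intensity, which is the array's background-subtracted signal divided by that array's 75th percentile and multiplied by 1019, the median of that percentile over the 20 arrays. Differences are log2 of D361E over WT, with the standard error after the ± sign, from limma on 18739 genes with Benjamini-Hochberg adjustment. A gene was called at an adjusted p under 0.05. On the 6 arrays 23559 to 24381 of 43020 spots were well above background. Across genes, whose values are not independent replicates, D361E replicate 1 correlated at 0.985 and 0.988 with the other D361E arrays and at 0.9875 to 0.9893 with the WT arrays, so it stood nearer to WT than D361E replicates 2 and 3, which correlated at 0.9811 to 0.9865 with WT. Of 5 slides only slide 1 held both groups, with D361E replicate 1 and WT replicate 1. D361E replicates 2 and 3 and WT replicate 2 shared their slides with void arrays. WT replicates 2 and 3 lay on slides without D361E.

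The level of Rela overlapped between the groups. Its scaled intensity was 17950, 20830 and 19550 on the D361E arrays, against 19090, 19350 and 19420 on the WT arrays and 18400, 17930 and 18610 on the void arrays. The D361E values lay on both sides of the WT values, and the difference was 0.01 ± 0.07 (adjusted p = 0.965). Where the Rela probe lies relative to the transfected construct was not worked out here, so the probe does not check how much construct the cells carried.

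Among the direct feedback and chemokine targets of NF-kB, 3 genes rose in D361E cells relative to WT cells and 1 fell. The risers were Nfkbia, which encodes the inhibitor IkB-alpha, Tnfaip3, which encodes the ubiquitin-editing inhibitor A20, and Cxcl10, a chemokine that attracts T cells. The gene that fell was Bcl3, an atypical IkB protein that works in the nucleus with the p50 and p52 subunits. In all genes tested 4.21% were called, 2.42% as higher and 1.79% as lower, and the arrays of the groups did not overlap for 26.1%.

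The promoters of these 4 genes are shown because they are the called members of the NF-kB lists. Each runs from 250 bases before to 50 after the start of transcription, 5′ to 3′ on the gene's strand, from RefSeq on build GRCm38.p6. Capitals mark a match on either strand to a form of the 10-base kB pattern, GGGA then any 2 bases then TTCC. The Nfkbia promoter is chr12:55492598-55492897, the Cxcl10 promoter chr5:92348840-92349139, the Bcl3 promoter chr7:19822706-19823005 and the first of 2 Tnfaip3 promoters chr10:19015361-19015660, all on the minus strand.
Nfkbia: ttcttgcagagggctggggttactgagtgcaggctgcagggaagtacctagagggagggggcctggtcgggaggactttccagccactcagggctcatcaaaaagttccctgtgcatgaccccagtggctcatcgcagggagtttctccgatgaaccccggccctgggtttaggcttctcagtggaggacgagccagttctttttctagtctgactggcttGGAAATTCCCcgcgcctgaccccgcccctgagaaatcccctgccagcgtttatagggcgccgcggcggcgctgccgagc
Cxcl10: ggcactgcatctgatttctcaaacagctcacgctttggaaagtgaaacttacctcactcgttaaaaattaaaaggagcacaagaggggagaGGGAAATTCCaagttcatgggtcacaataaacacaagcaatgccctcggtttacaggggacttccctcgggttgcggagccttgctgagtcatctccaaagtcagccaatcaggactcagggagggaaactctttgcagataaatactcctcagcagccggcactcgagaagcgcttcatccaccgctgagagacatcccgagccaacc
Tnfaip3: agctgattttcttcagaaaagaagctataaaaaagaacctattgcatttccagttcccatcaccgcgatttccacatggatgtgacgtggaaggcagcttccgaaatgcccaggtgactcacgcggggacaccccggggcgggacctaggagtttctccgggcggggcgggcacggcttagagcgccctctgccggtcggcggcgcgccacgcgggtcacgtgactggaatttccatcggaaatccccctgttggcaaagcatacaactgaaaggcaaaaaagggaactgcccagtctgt
Bcl3: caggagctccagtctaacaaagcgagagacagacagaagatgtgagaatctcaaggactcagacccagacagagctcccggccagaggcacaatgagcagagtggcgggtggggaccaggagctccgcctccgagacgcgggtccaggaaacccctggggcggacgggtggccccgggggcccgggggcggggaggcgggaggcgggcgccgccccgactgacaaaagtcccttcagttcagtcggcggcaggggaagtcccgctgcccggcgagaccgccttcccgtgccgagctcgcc
Nfkbia holds 1 match, whose first base lies 29 bases before the start, and Cxcl10 holds 1 match 159 bases before it. Tnfaip3 and Bcl3 hold 0 matches to this form in this window. Other forms of the kB site were not searched for in any of the promoters. A match is present in 1.47% of all 32851 promoters and in 1.69% of the 11035 tested genes that have one. Among called genes with a promoter it is present in 10 of 324 called higher (3.09%) and in 2 of 243 called lower (0.82%). Of the measured members of the 3 NF-kB lists (subunits, feedback inhibitors, chemokines and cytokines), 17 had a promoter to search and 6 of these hold a match. Relb, Nfkb1, Ccl2 and Ccl5 were among the members without a promoter to search.

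Nfkbia stood at 8348, 9934 and 8581 in D361E cells, against 5893, 5187 and 5018 in WT cells and 2856, 3117 and 3252 in void cells (0.74 ± 0.11, limma adjusted p = 0.000636). Tnfaip3 stood at 410.2, 555.1 and 542.1 in D361E cells, against 304.3, 274.8 and 287.6 in WT cells and 45.97, 48.63 and 47.7 in void cells (0.79 ± 0.15, limma adjusted p = 0.00486). For both genes every D361E array lay above every WT array, and every WT array above every void array. Cxcl10 had the smallest error of the 4, with 8811, 8586 and 9116 in D361E cells, against 4877, 4999 and 4514 in WT cells and 1793, 1551 and 1419 in void cells (0.88 ± 0.08, limma adjusted p = 4.95e-06). Its groups were likewise fully apart, in the same order. Bcl3 ran the other way, with 133.4, 209.0 and 203.6 in D361E cells, against 377.7, 347.5 and 345.1 in WT cells and 150.8, 140.8 and 128.6 in void cells (-0.999 ± 0.16, limma adjusted p = 0.00123). The WT arrays were the high ones there, while the D361E arrays overlapped the void arrays. In a fit of the 6 arrays alone the Bcl3 call was lost (adjusted p = 0.0551). On slide 1, where D361E replicate 1 and WT replicate 1 can be set side by side, the differences were 0.50 for Nfkbia, 0.43 for Tnfaip3, 0.85 for Cxcl10 and -1.50 for Bcl3. These 2 arrays are part of the comparison and its groups do not overlap for these genes, so the direction on slide 1 is given as a description.

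The remaining measured genes of these families were not called. Of the subunits 4 were measured and 0 called, with differences of 0.01 for Rela, 0.06 ± 0.11 for Relb, 0.11 ± 0.19 for Nfkb2 and 0.27 ± 0.17 for Nfkb1, whose probes differed in sign. Of 11 measured feedback inhibitors 2 rose and 1 fell. The other 8, among them the IkB gene Nfkbie and the deubiquitinase gene Cyld, ranged from -0.49 to 0.30 at their brightest probes. Their other probes included 0.63 ± 0.17 and 0.17 ± 0.16 for Nfkbib and -0.03 ± 0.11 for Tnip2. The median of all 11 was 0.04, beside 0.005 over all genes. Of 8 measured chemokines and cytokines Cxcl10 alone was called. Cxcl1, a chemokine that attracts neutrophils, read 37.16, 38.85 and 44.89 in D361E cells, against 131.7, 108.2 and 105.4 in WT cells, and was not above background on any void array. Its groups did not overlap, but the difference of -1.51 ± 0.47 missed the threshold with all 20 arrays in the fit (adjusted p = 0.0963) and passed it with only these 6. Ccl5, a chemokine for T cells and monocytes, read 1191, 1941 and 1360 in D361E cells, against 1055, 1034 and 960.7 in WT cells (0.53 ± 0.17, limma adjusted p = 0.107). Ccl2, which attracts monocytes, was above background on none of the D361E arrays, all 3 WT arrays and none of the void arrays, and was not called (adjusted p = 0.0792).

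**Figure D1:**
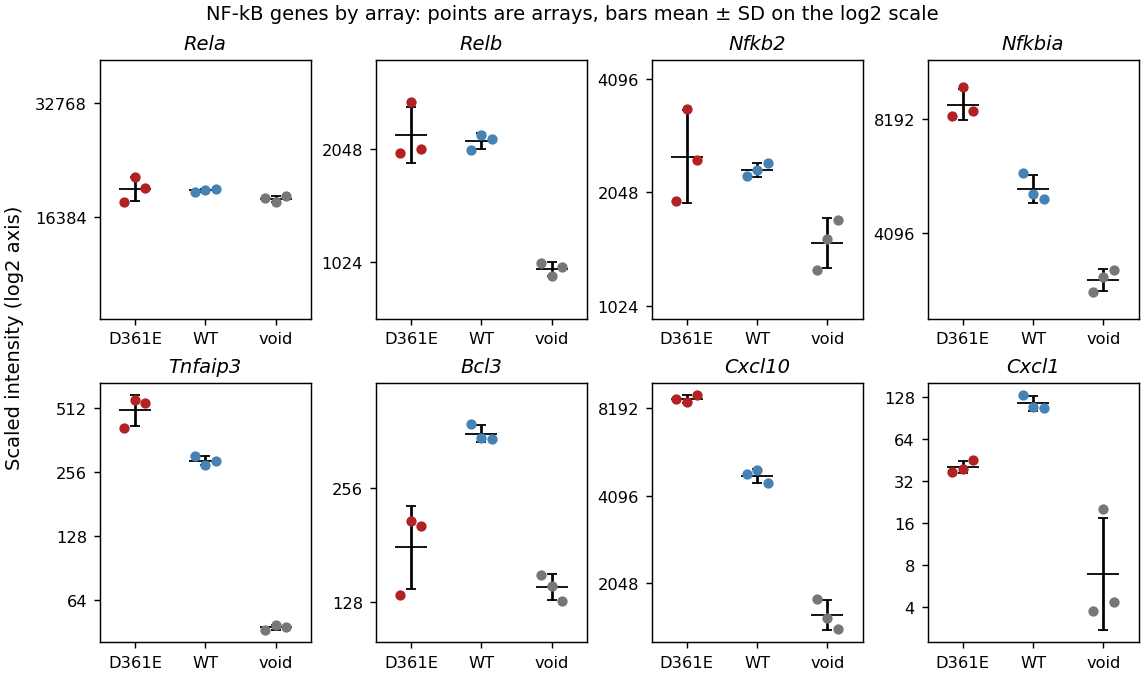
Scaled intensity (log2 axis, its own range in each panel) of 8 NF-kB genes, with D361E arrays left of WT arrays and void arrays last; points are single arrays and bars the mean ± SD on the log2 scale. Tnfaip3, Nfkbia and Cxcl10 are highest in D361E and lowest in void cells, Bcl3 is high on the WT arrays, and Rela overlaps between D361E and WT.

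Survival and signalling lists of the pathway held 0 or 1 called gene each, or 0% to 10% of their measured members, beside 4.21% of all genes. Of 12 measured survival targets 1 rose, the stress sensor gene Gadd45b, at 261.6, 281.8 and 247.1 in D361E cells, against 206.0, 190.9 and 173.4 in WT cells (0.47 ± 0.11, limma adjusted p = 0.0207). That call was lost without D361E replicate 1 or 2 or WT replicate 2 or 3 (adjusted p = 0.054, 0.0941, 0.0675 and 0.0996). Of 18 measured genes of the IKK complex and receptor signalling and 6 other inflammatory targets 0 were called. Caspase genes (0 of 8) and apoptotic p53 targets (0 of 9) had no call either, and in the BCL2 family the BH3-only gene Bmf rose (0.58 ± 0.13, limma adjusted p = 0.0135, lost in 4 of 6 fits that left out 1 array).

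Over all genes 788 were called in D361E against WT cells, 453 of them higher and 335 lower, and 185 changed at least 2-fold (0.987% of genes tested). For 787 of the 788 called genes the arrays of the groups did not overlap. A statement that the groups of a called gene lay apart is therefore a description and no further support. The middle of the called genes was a modest change, with a median absolute log2 difference of 0.55. The count was 476 without D361E replicate 3, 486 without WT replicate 1 and 469 without WT replicate 2. It was 776 in a fit of the 6 arrays alone, and only 445 genes were called by both fits in the same direction. It was 1602 without the arrays of both fragments together and 522 without a filter on dim probes. The balance of directions depended on scaling. On unscaled values 130 genes were called higher and 1273 lower, a share of 9.3% higher against 57.5% on scaled values, and the middle gene then stood at -0.24.

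**Figure D2:**
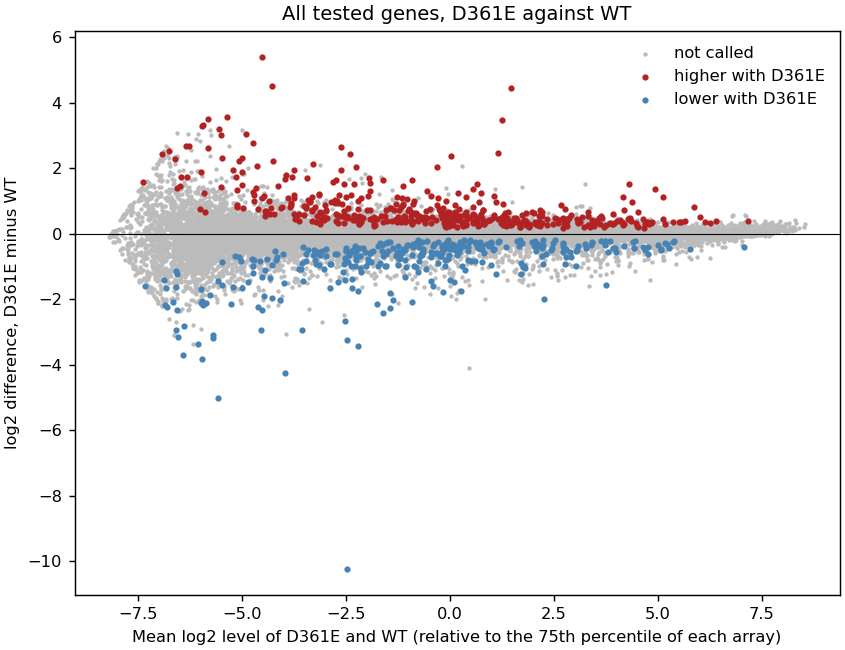
Log2 difference of D361E over WT (vertical axis) against mean log2 level (horizontal axis) for the 18739 genes tested, each point a gene. The called genes, 453 higher in red and 335 lower in blue, lie at dim and bright levels alike, and differences of uncalled genes in grey spread more widely among dim genes.

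The largest rises included enzymes and cytoskeletal adaptors that were low or not above background in WT cells. Lims2, a focal adhesion adaptor of the PINCH family, stood at 16940, 10950 and 12640 in D361E cells, against 481.1, 567.0 and 814.8 in WT cells and 296.4, 443.3 and 381.4 in void cells (4.46 ± 0.25, limma adjusted p = 4.47e-08). Every D361E array lay above every WT array, and WT above void. In the fragment groups Lims2 averaged 35690 with the N-fragment, 2832 with the C-fragment and 15090 with both fragments (geometric means).

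Ldhd, a mitochondrial D-lactate dehydrogenase, read 264.0, 333.0 and 273.9 in D361E cells and 625.1, 570.5 and 620.3 in void cells, and was above background on none of the WT arrays, which made it at least 16.7-fold higher (limma adjusted p = 0.0036). Such a bound sets the D361E mean against the dimmest signals that count as above background on the WT arrays. Fstl1, a secreted glycoprotein, read 214.6, 280.8 and 254.5 in D361E cells and 182.7, 163.8 and 150.0 in void cells, and was likewise at least 14.3-fold higher than in WT (limma adjusted p = 0.00227). Void arrays were above background for both genes, as they were for the glycosyltransferase gene B4galnt4 (at least 3.76-fold higher, adjusted p = 0.000687). Void arrays were not above background for the homeobox gene Hoxb13 (at least 5.29-fold higher, adjusted p = 0.000478) or for Blnk, an adaptor of B-cell receptor signalling (at least 3.46-fold higher, adjusted p = 6.17e-06). Nrip3 read 476.9, 356.9 and 407.1 in D361E cells, against 73.34, 57.3 and 69.14 in WT cells (2.63 ± 0.18, limma adjusted p = 3.65e-07). Nhlrc1, the ubiquitin ligase malin (at least 3.01-fold, adjusted p = 2.52e-06), and Calr4 (at least 2.55-fold, adjusted p = 5.82e-05) were higher too. The synapsin gene Syn2 was at least 4.86-fold higher (adjusted p = 0.011), a call lost without WT replicate 2 (adjusted p = 0.0561) and with slide as a block (adjusted p = 0.0865). Mal, a raft-associated membrane protein, was uneven over the D361E arrays at 31.92, 22.26 and 176.7, with none of the WT arrays above background (at least 2.89-fold, adjusted p = 0.00554), and its call was lost in the fit of the 6 arrays alone (adjusted p = 0.129). Cltrn, the membrane protein collectrin, had a bound of at least 1.91-fold higher (adjusted p = 0.0323). The olfactory receptor gene Olfr429, above background on 2 of 3 D361E arrays, had one of at least 1.29-fold (adjusted p = 0.044). These genes lost their calls in 5 and 6 of the 6 fits that left out 1 array.

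Among the largest falls, Cyba, the gene of the NADPH oxidase subunit p22phox, was above background on none of the D361E arrays, against 6228, 6207 and 6753 in WT cells and 3093, 3573 and 3767 in void cells. It was at least 386-fold lower in D361E than in WT cells (limma adjusted p = 0.0171). Both Cyba probes showed the fall. Its adjusted p was 0.0559 to 0.0638 in 5 of the 6 fits that left out 1 array, all but that without D361E replicate 1, and 0.113 with slide as a block. The arrays with both fragments, which enter the shared estimate of the spread, were uneven for Cyba, with an SD of 5.52 on the log2 scale (n = 5).

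Col4a1, a chain of basement membrane collagen, was above background on none of the D361E arrays, against 113.0, 119.0 and 133.8 in WT cells and 137.6, 164.1 and 167.9 in void cells, and was at least 7.35-fold lower than in WT (limma adjusted p = 1.12e-12). Capn6, a calpain without protease activity, read 62.2, 86.89 and 63.51 in D361E cells, against 469.6, 449.9 and 417.9 in WT cells (-2.67 ± 0.17, limma adjusted p = 2e-07), and was not above background on any void array. Ppargc1a, the PGC-1alpha coactivator of mitochondrial genes, read 146.7, 166.3 and 118.8 in D361E cells, against 826.1, 715.8 and 759.5 in WT cells and 813.7, 750.6 and 733.4 in void cells (-2.43 ± 0.17, limma adjusted p = 2.78e-07). For Capn6 the D361E arrays thus lay between the WT and void arrays, and for Ppargc1a WT and void arrays overlapped, with D361E below both. Naip2, a sensor of the inflammasome, read 22.41, 39.72 and 33.62 in D361E cells, against 250.1, 230.9 and 229.1 in WT cells (-2.93 ± 0.59, limma adjusted p = 0.0075). Miga1, which promotes mitochondrial fusion, read 63.42, 72.4 and 66.63 in D361E cells, against 714.6, 688.7 and 764.6 in WT cells (-3.42 ± 0.59, limma adjusted p = 0.00238). Mgarp, a mitochondrial protein, read 54.58, 57.48 and 64.95 in D361E cells, against 659.6, 446.4 and 597.1 in WT cells (-3.25 ± 0.36, limma adjusted p = 4.6e-05). These 3 genes were picked among those whose groups did not overlap, and Mgarp in void cells (41.77 to 69.53) lay with D361E. Kbtbd11 was called lower (limma adjusted p = 7.51e-07), with readings of 11.53, 17.47 and 16.3 in D361E cells, against 305.6, 237.0 and 321.6 in WT cells. Only 1 of the 3 D361E arrays was above background at this probe and 0 at a second one, so the size of the fall is not given.

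The other falls among the 15 largest were of genes whose probe was above background on none of the D361E arrays. Srgap3, a GTPase activator for Rac, was at least 3.49-fold lower (limma adjusted p = 0.000127), Tmem74b at least 3.53-fold (adjusted p = 1.87e-06) and the cullin gene Cul9 at least 2.57-fold (adjusted p = 1.88e-05). A second probe gave a smaller difference for each, -0.90 ± 0.71 for Tmem74b and -1.09 ± 0.44 for Srgap3, both smaller than the bounds from the first probe, and -1.76 ± 1.08 for Cul9. Fam24a was at least 1.97-fold lower (adjusted p = 6.32e-06), but stood at 0.35 when dim probes were kept and another probe was the brightest. Hebp1, a haem-binding protein, was at least 7.13-fold lower (adjusted p = 0.0211), Pate6, above background on 2 of 3 WT arrays, at least 1.77-fold (adjusted p = 0.0182) and Gprin1 at least 1.94-fold (adjusted p = 0.0058). The Hebp1 call was lost in 5 and the Pate6 call in 4 of the 6 fits that left out 1 array, and the Gprin1 call with normexp background correction (adjusted p = 0.0892). Counting over all genes, 58 were above background on all 3 D361E arrays and no WT array, 19 of them called. On no D361E array and all 3 WT arrays there were 49, 18 of them called.

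**Figure D3:**
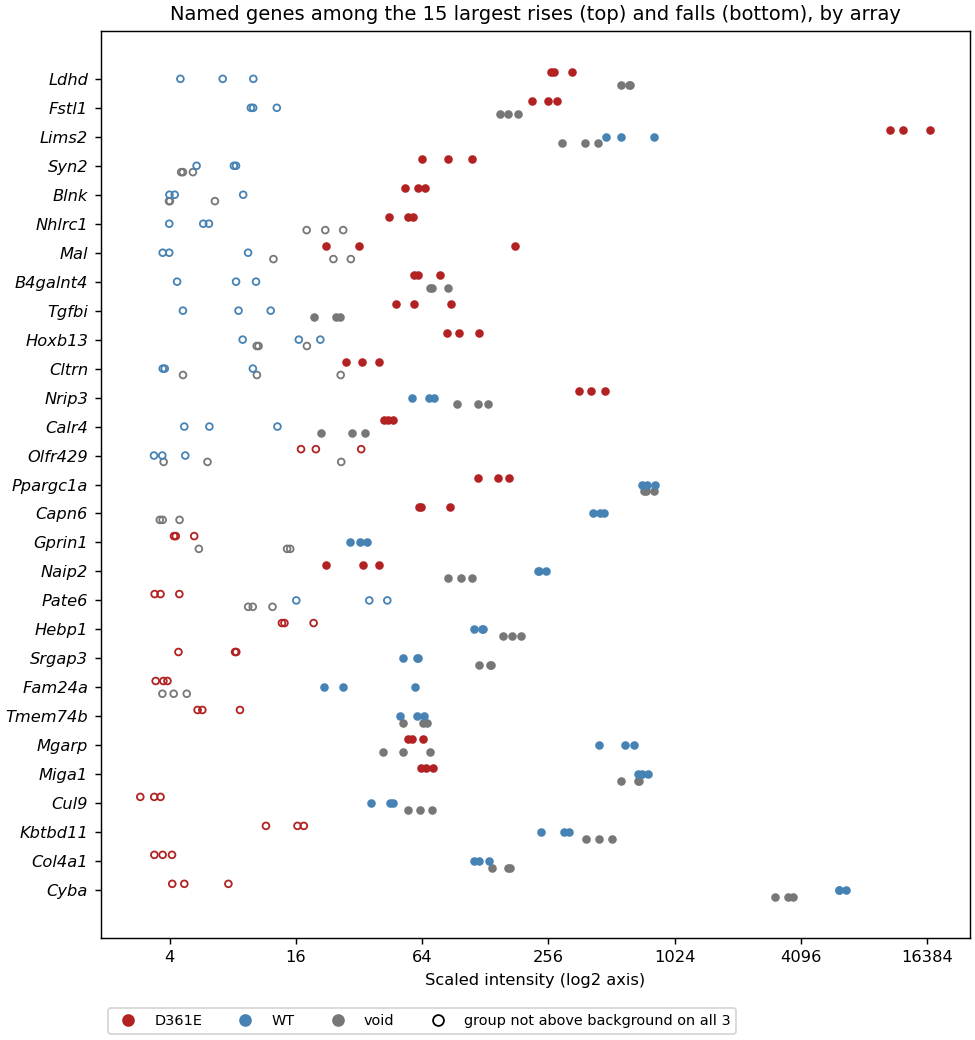
Scaled intensity (horizontal log2 axis) of the named genes among the 15 largest rises and the 15 largest falls, a row per gene and a point per array, with D361E above WT and void in each row. Open circles mark groups not above background on all 3 arrays, as for Cyba and Col4a1 in D361E cells and Ldhd and Fstl1 in WT cells.

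Cells switch on the integrated stress response through ATF4 when amino acids run short or protein folding fails. Of its 19 measured targets 11 fell in D361E relative to WT cells, beside 1.79% of all genes. In this list 0 rose and 8 were not called, with a median of -0.48. The transcription factor gene Atf3 read 120.7, 186.6 and 173.5 in D361E cells, against 342.0, 343.8 and 302.5 in WT cells (-1.06 ± 0.13, limma adjusted p = 0.000127). Trib3, a pseudokinase that restrains ATF4, read 5402, 6440 and 5923 in D361E cells, against 13690, 11560 and 10050 in WT cells and 4235, 3166 and 3230 in void cells (-0.98 ± 0.18, limma adjusted p = 0.00404). Ddit4, an mTORC1 inhibitor also induced by hypoxia, read 2142, 2871 and 2412 in D361E cells, against 5440, 4900 and 4456 in WT cells and 13070, 12920 and 13150 in void cells (-1.0005 ± 0.09, limma adjusted p = 6.58e-06). All 3 had D361E and WT apart, but the D361E arrays lay above void for Trib3 and far below void for Ddit4. For Atf3 the void arrays read 318, 330.6 and 365.4 and overlapped WT, with D361E below both.

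Biosynthetic targets of the same response were among those that fell. The folate enzyme gene Mthfd2 read 4282, 3921 and 4108 in D361E cells, against 6664, 6418 and 5815 in WT cells (-0.62 ± 0.09, limma adjusted p = 0.000396). The serine synthesis genes Psat1 (-0.42 ± 0.06, limma adjusted p = 0.000667) and Phgdh (-0.51 ± 0.11, limma adjusted p = 0.00991) fell, the Phgdh call being lost without D361E replicate 1 (adjusted p = 0.0504) and with the 6 arrays alone (adjusted p = 0.101). Nupr1, a stress-induced chromatin protein, read 484.1, 904.9 and 682.1 in D361E cells, against 2697, 2092 and 1961 in WT cells (-1.74 ± 0.45, limma adjusted p = 0.0383), and its call was lost in all 6 fits that left out 1 array (adjusted p = 0.0506 to 0.149). Vldlr, Chac1, Cebpg and Ddit3, the last encoding CHOP, also fell, each with its call lost in 4 of those 6 fits. The number of called members was 7 without D361E replicate 1, 6 without D361E replicate 3, 6 without WT replicate 1, 7 without WT replicate 2 and 7 with the 6 arrays alone. Beside these, 2 of 20 cytosolic aminoacyl-tRNA synthetase genes fell, Mars1 (-0.34 ± 0.05, limma adjusted p = 0.000596) and Iars (-0.23 ± 0.06, limma adjusted p = 0.0402, lost in 5 of 6 fits that left out 1 array). Among 18 chaperone and XBP1 targets of the endoplasmic reticulum Herpud1 alone fell (-0.54 ± 0.12, limma adjusted p = 0.0145, lost in 4 of those fits), and the list median was -0.002.

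Of 15 measured hypoxia targets 5 fell, beside 1.79% of all genes, 0 rose and 10 were not called, with a list median of -0.38. Bnip3, a receptor for mitophagy, read 2154, 2901 and 2400 in D361E cells, against 11040, 8021 and 10600 in WT cells and 13060, 11970 and 14540 in void cells (-1.99 ± 0.14, limma adjusted p = 5.24e-07). The angiogenic factor gene Vegfa read 164.7, 238.7 and 200.6 in D361E cells, against 739.6, 621.2 and 724.1 in WT cells and 485.2, 545.7 and 552.4 in void cells (-1.80 ± 0.15, limma adjusted p = 1.97e-06). In both genes the D361E arrays were the lowest of the 3 groups, with no overlap. Ankrd37 (-0.80 ± 0.15, limma adjusted p = 0.00395) lost its call with the 6 arrays alone (adjusted p = 0.109). The prolyl hydroxylase gene Egln1 (-0.45 ± 0.12, limma adjusted p = 0.0456) and the histone demethylase gene Kdm3a (-0.38 ± 0.09, limma adjusted p = 0.0282) lost theirs in 6 and 5 of the 6 fits that left out 1 array. The number of called hypoxia targets was 3 without D361E replicate 2 or 3 or without any of the WT replicates, 3 with no filter on dim probes, and 10 in a fit without the arrays of both fragments together.

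Of 21 measured glycolytic genes 4 fell and 1 rose, beside 1.79% of all genes lower and 2.42% higher. Pdk1 encodes an inhibitor of pyruvate dehydrogenase. It read 106.6, 106.0 and 119.9 in D361E cells, against 373.9, 306.4 and 383.1 in WT cells (-1.67 ± 0.10, limma adjusted p = 1.18e-07). Void cells read 336.4, 334.2 and 364.5. The phosphofructokinase gene Pfkl read 1125, 1504 and 1244 in D361E cells, against 2409, 2150 and 2471 in WT cells and 1999, 2802 and 3007 in void cells (-0.87 ± 0.17, limma adjusted p = 0.00621). For both genes D361E lay below WT and void, which overlapped. Pfkp, the platelet-type isoform, fell at its brightest probe (-1.004 ± 0.14, limma adjusted p = 0.000458), while a second probe gave -0.20. The hexokinase gene Hk2 fell (-0.48 ± 0.08, limma adjusted p = 0.00233) but was not called with the 6 arrays alone (adjusted p = 0.0539) or with normexp background correction (adjusted p = 0.124). The 1 riser, Pfkfb3, was small (0.23 ± 0.05, limma adjusted p = 0.00879), lost its call without WT replicate 3 (adjusted p = 0.0514), and stood at -0.02 on unscaled values. The list's count was 3 with the 6 arrays alone, 9 with slide as a block and 13 on unscaled values, and its median was -0.11.

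Of 16 measured growth-arrest targets of p53, 5 fell, beside 1.79% of all genes. In this list 0 rose and 11 were not called, with a median of -0.39. Sesn2, a stress-induced mTORC1 inhibitor that ATF4 also induces, read 1234, 1114 and 1098 in D361E cells, against 2334, 2011 and 1881 in WT cells and 2210, 2172 and 2235 in void cells (-0.85 ± 0.08, limma adjusted p = 1.11e-05). Trp53inp1, an autophagy-linked p53 cofactor, read 689.7, 633.2 and 659.6 in D361E cells, against 1030, 998.0 and 975.9 in WT cells and 4033, 3782 and 3837 in void cells (-0.60 ± 0.08, limma adjusted p = 0.000199). For Sesn2 the D361E arrays were low and WT and void overlapped, whereas for Trp53inp1 D361E was lowest, WT next and void highest. The antiproliferative gene Btg2 had the same order, with geometric means of 27.17 in D361E cells, 53.86 in WT cells and 218.3 in void cells (-0.99 ± 0.14, limma adjusted p = 0.000458). Plk2, a polo-like kinase, was above background on none of the D361E arrays and all WT arrays, at least 1.73-fold lower (limma adjusted p = 0.00039). Cdkn1a, the p21 inhibitor of cyclin-dependent kinases, read 3029, 4410 and 3854 in D361E cells, against 5607, 5887 and 6442 in WT cells and 13540, 17730 and 19590 in void cells (-0.68 ± 0.17, limma adjusted p = 0.0336), and its call was lost in 5 of the 6 fits that left out 1 array.

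NRF2 switches on antioxidant and NADPH-producing enzymes. Of its 20 measured targets 7 rose, beside 2.42% of all genes, 0 fell and 13 were not called, with a list median of 0.28. The quinone reductase gene Nqo1 read 266.8, 301.8 and 307.0 in D361E cells, against 104.8, 96.37 and 106.8 in WT cells (1.51 ± 0.26, limma adjusted p = 0.00227). Nqo1 was not above background on any void array. Srxn1, which encodes sulfiredoxin, read 26710, 31950 and 30320 in D361E cells, against 15660, 15340 and 14160 in WT cells and 12120, 13000 and 12440 in void cells (0.98 ± 0.10, limma adjusted p = 1.43e-05). D361E was the highest of the 3 groups for both genes, with no overlap. Gclc, the catalytic subunit for glutathione synthesis, read 3060, 2870 and 2975 in D361E cells, against 1944, 2077 and 2166 in WT cells (0.53 ± 0.10, limma adjusted p = 0.00345) and was not called on unscaled values (adjusted p = 0.173). The thioredoxin reductase gene Txnrd1, the NADPH-producing Me1 and Pgd, and Taldo1 rose by 0.29 to 0.38. Each of these lost its call in 4 to 6 of the 6 fits that left out 1 array. The list count was 3 without D361E replicate 3 or WT replicate 2 and 4 without any other of the 6 arrays. It was 4 with the 6 arrays alone, 3 with no filter and 2 on unscaled values.

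Of 14 measured mesenchymal and TGF-beta response genes 5 rose in D361E cells, beside 2.42% of all genes. In this list 0 fell and 9 were not called, with a median of 0.77. The matricellular genes Ccn2 and Ccn1 both rose. Ccn2 read 2883, 2584 and 2571 in D361E cells, against 949.1, 877.4 and 1018 in WT cells and 475.0, 531.6 and 531.4 in void cells (1.50 ± 0.18, limma adjusted p = 0.000116). Ccn1 read 1654, 1419 and 1458 in D361E cells, against 764.5, 756.0 and 958.9 in WT cells and 668.7, 780.5 and 859.0 in void cells (0.88 ± 0.12, limma adjusted p = 0.000274). Snai2, a transcriptional repressor of the epithelial state that melanocytes also use, read 1506, 1204 and 1352 in D361E cells, against 751.3, 655.8 and 645.3 in WT cells (0.98 ± 0.18, limma adjusted p = 0.00399, but 0.052 on unscaled values). D361E arrays lay above all WT arrays for the 3 genes, while WT and void overlapped for Ccn1. The receptor kinase gene Axl read 442.1, 479.3 and 456.9 in D361E cells, against 187.5, 144.1 and 147.1 in WT cells (1.54 ± 0.32, limma adjusted p = 0.00913), and was not called with slide as a block (adjusted p = 0.0678). Tgfbi, an extracellular matrix protein induced by TGF-beta, was above background on all D361E and void arrays and no WT array, at least 3.62-fold higher than in WT (limma adjusted p = 0.00042). Without the arrays of both fragments together the list held 8 called members. Fibroblast markers, where 0 of 5 measured members were called, summed to 6765 to 9409 on the D361E arrays and 7717 to 8567 on the WT arrays, and Col3a1, Dcn, Lum and Pdgfrb were not measured.

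The ID genes encode inhibitors of basic helix-loop-helix factors and respond to BMP and TGF-beta signals. Together with the inhibitory SMADs they had a list median of 1.37 over 5 measured members. Of these 5, 1 was called, as higher, beside 2.42% of all genes. Id2 read 35400, 20560 and 26930 in D361E cells, against 8458, 14580 and 15270 in WT cells (1.13 ± 0.29, limma adjusted p = 0.0366), and lost its call without D361E replicate 1 or 3 or WT replicate 1 or 2 (adjusted p = 0.127, 0.11, 0.19 and 0.0616). Id3 was not called although its arrays were apart, at 20000, 13830 and 15850 in D361E cells, against 5612, 4870 and 6716 in WT cells (1.53 ± 0.45, limma adjusted p = 0.0734). Both genes were most intense on D361E replicate 1.

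Of 7 measured targets of STAT5, a factor that Bcr-Abl activates, 3 rose, beside 2.42% of all genes. Pim3, a survival kinase, read 3110, 3055 and 2967 in D361E cells, against 1448, 1562 and 1694 in WT cells and 1644, 1965 and 2195 in void cells (0.96 ± 0.13, limma adjusted p = 0.00035). The feedback inhibitor genes Socs2 (0.41 ± 0.08, limma adjusted p = 0.00584) and Socs3 (0.21 ± 0.05, limma adjusted p = 0.0308) rose by less. Neither was called with the 6 arrays alone (adjusted p = 0.11 for Socs2 and 0.155 for Socs3), and Socs3 stood at -0.04 on unscaled values and lost its call in 5 of the 6 fits that left out 1 array. The list count was 1 under each of these 2 settings.

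**Figure D4:**
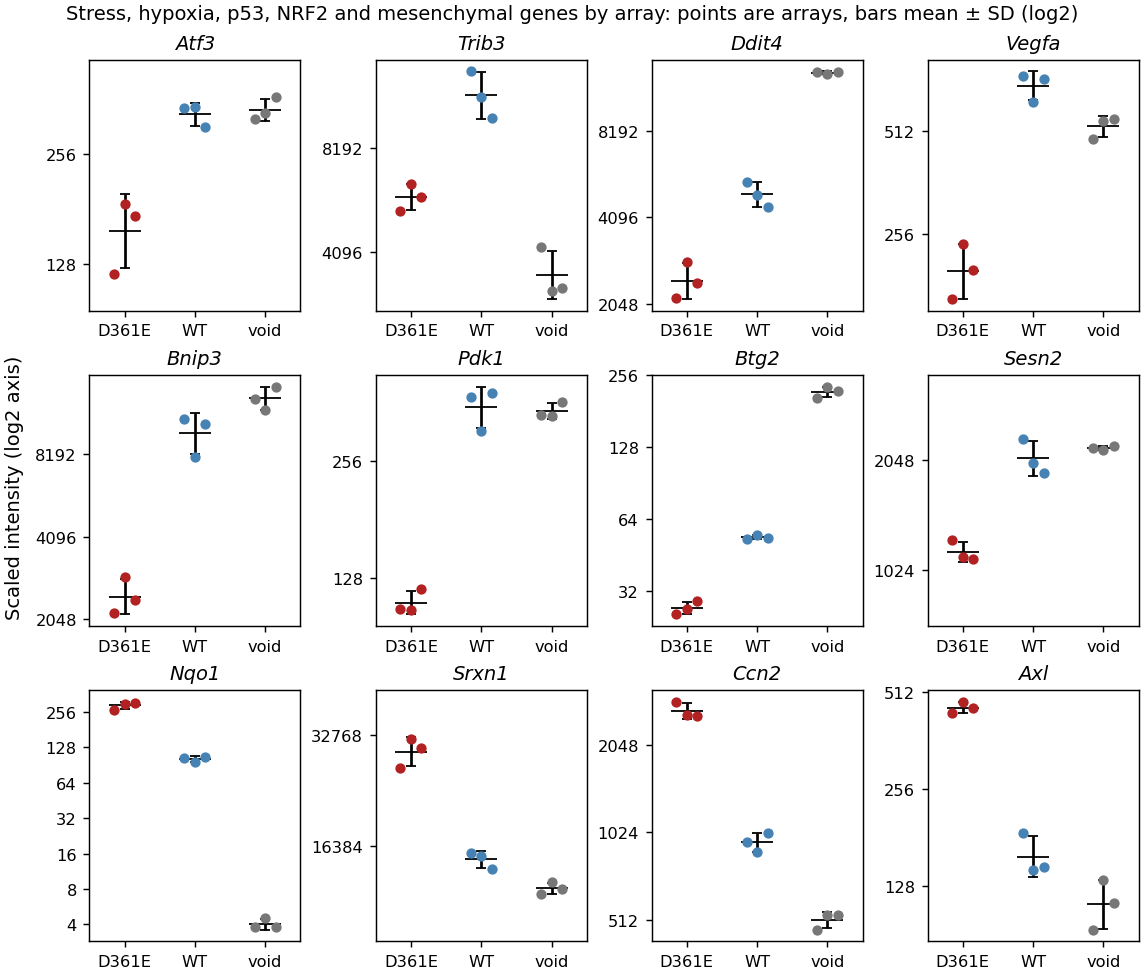
Scaled intensity (log2 axis, its own range in each panel) of 12 called genes, with D361E arrays left of WT arrays and void arrays last; points are single arrays and bars the mean ± SD on the log2 scale. Bnip3, Vegfa, Pdk1 and Atf3 are lower and Srxn1, Nqo1 and Ccn2 higher on every D361E array than on any WT array.

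Of 28 measured interferon-stimulated genes 5 fell in D361E relative to WT cells, beside 1.79% of all genes. In this list 0 rose and 23 were not called, with a median of -0.31. Cxcl10 was counted with the chemokines and not in this list. Rtp4, an antiviral chaperone gene, read 102.3, 146.5 and 116.7 in D361E cells, against 497.1, 397.3 and 328.4 in WT cells and 435.1, 377.8 and 420.1 in void cells (-1.74 ± 0.32, limma adjusted p = 0.00431). Xaf1, a proapoptotic interferon target, read 89.23, 132.5 and 107.9 in D361E cells, against 318.8, 274.9 and 271.3 in WT cells and 295.5, 296.5 and 312.7 in void cells (-1.41 ± 0.14, limma adjusted p = 1.42e-05). WT and void overlapped for both genes and D361E lay below both groups. Irf7, a transcription factor of the response that was above background on no D361E array, was at least 2.12-fold lower (limma adjusted p = 0.0262). Irf7 lost its call in all 6 fits that left out 1 array (adjusted p = 0.0615 to 0.0958), Ifitm3 in all 6 and the RNA sensor gene Ddx58 in 5. The list count was 2 without D361E replicate 1 or 3 or WT replicate 1 or 2, 3 without WT replicate 3 and 3 with no filter. It was 9 with the 6 arrays alone, 13 without the arrays of both fragments together and 11 on unscaled values. For MHC class I presentation, 0 of 11 measured members were called. All 11 differences were below 0, with a median of -0.32 beside 0.005 over all genes. Only 8 of the 11 were above background on all 6 arrays, so some of these signs come from dim readings. The beta-2 microglobulin gene B2m read 21410, 21260 and 21540 in D361E cells, against 28670, 27080 and 24310 in WT cells (-0.31 ± 0.13, limma adjusted p = 0.251). The peptide transporter gene Tap1 was above background on no D361E array and all WT arrays, and was not called (adjusted p = 0.217).

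The melanocyte identity of the cells was present in both groups. Signal was above background on all 6 arrays for 19 of the 20 melanocyte markers, with summed intensities of 1599000 to 1777000 on the D361E arrays and 1415000 to 1515000 on the WT arrays. Of the 20 markers 1 was called higher and 1 lower, or 10%, beside 4.21% of all genes. The pigment-cell receptor gene Gpr143 was higher (0.46 ± 0.12, limma adjusted p = 0.046) and the tyrosinase gene Tyr lower (-0.29 ± 0.07, limma adjusted p = 0.0314). Both calls were lost in all 6 fits that left out 1 array. Of 20 blood and lymphoid markers 5 were measured, and Ptprc, Cd79a and Spi1 were not. The 5 were Cd3e, Cd4, Gata2, Kit and Vpreb1, and summed to 2562 to 2923 on the D361E arrays and 2215 to 2234 on the WT arrays. Kit is also among the 20 melanocyte markers, so this sum is not a measure of blood cells alone. Gata2 alone among the 5 was called, as higher (1.16 ± 0.30, limma adjusted p = 0.0374), beside 2.42% of all genes. That call was again lost in all 6 such fits. Measured macrophage markers numbered 4 of 10 (1999 to 3311 in D361E, 2578 to 3325 in WT) and epithelial markers 2 of 7, with 0 called. Of the 4 macrophage markers 3 were above background on all 6 arrays. Of the 2 epithelial markers 0 were, so no epithelial level is given. In a bulk sample fewer cells of a type and less RNA per cell cannot be told apart.

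Cell cycle and early response lists held 0 to 2 called genes each, or 0% to 13.3% of their measured members, beside 4.21% of all genes. Ccnd1, which encodes cyclin D1, read 5083, 5766 and 5699 in D361E cells, against 8939, 8735 and 9297 in WT cells and 9751, 11680 and 11830 in void cells (-0.71 ± 0.09, limma adjusted p = 0.000127), the 1 called of 9 measured in its list. Of 20 replication genes Rrm2 alone rose (0.36 ± 0.09, limma adjusted p = 0.0326, lost in 5 of 6 fits that left out 1 array), and of 20 mitosis genes 0 were called. Of 15 early genes the transcription factor gene Klf6 rose, at 11990, 13510 and 12950 in D361E cells, against 9959, 9855 and 9883 in WT cells (0.37 ± 0.06, limma adjusted p = 0.00071), but not on unscaled values (adjusted p = 0.346). Junb rose too (0.99 ± 0.27, limma adjusted p = 0.0464) and the ERK output gene Phlda1 fell (-0.33 ± 0.09, limma adjusted p = 0.0457), calls lost in 6 and 5 of the 6 fits that left out 1 array. In the matrix list the fibrillar collagen gene Col5a1 rose, at 263.4, 296.3 and 296.6 in D361E cells, against 142.7, 187.8 and 179.1 in WT cells (0.76 ± 0.11, limma adjusted p = 0.000607), opposite to Col4a1. The integrin gene Itgav fell slightly (-0.27 ± 0.07, limma adjusted p = 0.0456), a call lost in 5 of those 6 fits.

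No gene was called in 6 lists of housekeeping and cytoskeletal function, beside 4.21% of all genes. These were 25 proteasome subunits, 20 lysosomal genes, 21 oxidative phosphorylation subunits, 25 cytosolic ribosomal protein genes, 13 galectins and tubulins and 9 genes of fatty acid synthesis, with list medians from -0.14 to 0.08. With slide as a block 3 of the fatty acid synthesis genes were called, as were 3 on unscaled values.

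**Figure D5:**
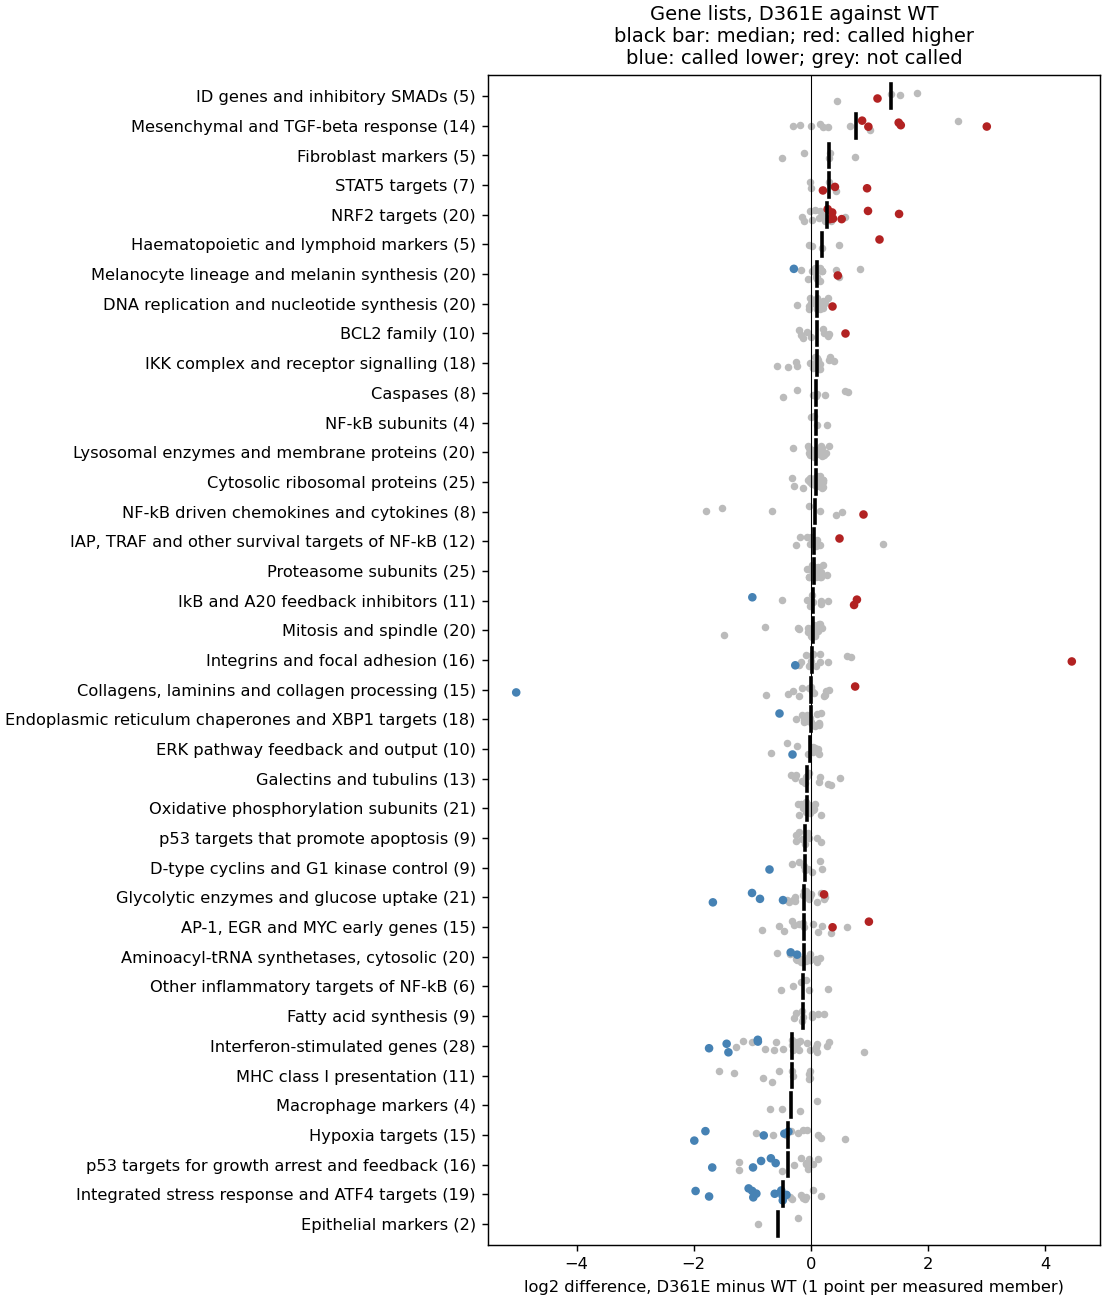
Log2 difference of D361E over WT (horizontal axis) for every measured member of the gene lists shown (rows, with the number measured), each point a gene, black bars the list medians, and called genes in red where higher and blue where lower. The medians of the integrated stress response, hypoxia, interferon and p53 arrest lists lie left of 0 and those of the NRF2, mesenchymal and ID lists right of it.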

How the data were processed

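RNA of 20 samples in 6 groups was measured, and no sample was left out. The authors labelled it with Cy3 and hybridized 1-colour arrays; the deposited scanner files hold intensity values that, per the file headers, come from Agilent Feature Extraction 10.7.3.1, and their processed signal is background-subtracted. The deposited series table equalled it on every feature, so it had not been scaled between arrays.

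From there log2 of the processed signal was taken and the 75th percentile of all non-control probes on an array was subtracted, which ranged 1.43-fold over the 6 arrays. Outlier spots (98 to 285 per array) were left out, and 0 were saturated. A probe was kept where 3 or more of the 20 arrays had it well above background, 23433 of 39429, and each gene was represented by its brightest probe. Symbols came from RefSeq accessions for 28663 probes (72.7%), leaving 18739 genes, 13824 with a symbol. limma 3.58.1 in R 4.3.3 fitted 6 groups (residual df 14), the contrast being D361E minus WT. The number of arrays limits the precision. The fit was tested on simulated data. The members and the 40 gene lists were chosen with earlier results of these data known, so no list was tested as a set; 555 of 643 members were measured. Named genes were Rela, the NF-kB lists, at most 3 called genes each way from the other lists, and the 15 largest rises and 15 largest falls without overlap and without placeholder symbols. 1 gene that the rule names is not reported here. Further called members of the stress response, p53, hypoxia, NRF2, glycolysis, interferon, STAT5 and mesenchymal lists, and uncalled genes such as Id3, B2m and Tap1, were named after their values were seen. Promoters were read from RefSeq.

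Alternatives were the scaling (quantile, normexp with offset 50, none), the filter, the averaging of probes, the arrays in the fit, trend and robust moderation, slide as a block, and leaving out each array. The files hold no mean signal column, so normexp used the median signal and the median background.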

Additional observations from a re-analysis of the deposited data

How the results depend on the processing

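Of 95 called genes that were rechecked, the named genes and all called list members, 48 kept direction and call under every alternative that measured them (the filter for all 20 arrays kept 78 and that for 3 of the 6 arrays 110 of the 114 genes followed). In a fit without the arrays of both fragments 1602 genes changed (939 higher, 663 lower), 285 at least 2-fold, and 122 list members were called. Unscaled values gave 1403 (130 higher, 1273 lower) and 106 list members, with Pfkfb3 at -0.02 and Socs3 at -0.0396. The all-gene median of -0.24 there also turns lists whose median lies within that shift of 0. Without a filter 522 changed (296 higher), and Fam24a stood at 0.35. Normexp left 60 genes changed at least 2-fold, and probes above background on all 20 arrays left 103, with 0 genes measured in 1 group only by construction. Leaving out 1 array gave 469 to 635 changed genes, 254 to 403 higher and 202 to 286 lower, 42 to 53 called list members and 151 to 217 genes measured in 1 group only. Quantile normalization gave 808, trend and robust moderation 807, probe averaging 741, and slide as a block 871, of which 587 were among the 788 in the same direction. The cause of these shifts was not tested. No paired analysis was possible because sample titles hold a consecutive number and no replicate number shared between D361E and WT. Signal over background limits comparison to about the 23559 to 24381 spots detected per array, and dim genes have only bounds.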
